A study of Mus musculus with 12 samples.

Results

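Elk1, Elk3 and Elk4 encode the ternary complex factors, a small branch of the ETS family of transcription factors, and Srf encodes their DNA-binding partner, serum response factor. The 4 genes were taken from the deposited gene counts of mouse frontal bone by matching gene symbols, and each was found on 1 of the 23358 rows of the table. All 4 passed a filter on low counts that left 16190 rows for testing. Elk4 was chosen by its measured difference between mutant and wild type samples in the BALB/c strain in these same counts, and the other 3 genes were added as its relatives and partner. That difference of Elk4 is therefore given below as a description, with no test.

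The tissue was the frontal bone, with nasal bone and the frontonasal and coronal sutures attached, taken at postnatal day 3 and digested with collagenase and trypsin. The 4 groups of 3 samples were Wild Type and FGFR2C342Y/+ mice on the C57BL/6 background, and Wild Type and FGFR2C342Y/+ mice on the BALB/c background. The mutant groups carry 1 copy of the C342Y allele of fibroblast growth factor receptor 2, which models Crouzon syndrome, a human disorder in which sutures of the skull fuse early, and no allele or agent was shared by all groups. The labels give neither the sex of the mice, nor how the allele was made, nor whether tissue of several pups was pooled. Y-linked transcripts passed 1000 counts in all 3 C57BL/6 wild type samples but in only 1 of 3 samples of each other group. Genotype in C57BL/6, strain among wild types and the interaction of the 2 are therefore partly mixed with sex. The part of sex in the differences below was not tested. Nothing in them says that samples came from separate animals, so the p-values below measure the spread between these samples only. The run identifiers show that each strain had a flow cell of its own, so strain and sequencing run cannot be told apart, while genotype was compared within a run.

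A ternary complex factor sits on DNA beside SRF. SRF binds a sequence called the CArG box, and the factor contacts SRF and a neighbouring ETS site built around the letters GGAA. Growth factor receptors, FGF receptors among them, activate the kinase ERK, which phosphorylates the carboxy-terminal part of Elk1, Elk3 and Elk4 and so switches on immediate early genes such as Fos and Egr1. Elk3, also called Net, represses many of its targets until it is phosphorylated. The myocardin-related factors Mkl1 and Mkl2 are the other class of SRF cofactors. They respond to actin dynamics, compete with the ternary complex factors for SRF, and act mainly on genes of the cytoskeleton and of contraction.

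The deposited table places Elk4 at chr1:132007605-132025684, Elk1 at chrX:20933395-20950608, Elk3 at chr10:93247416-93311159 and Srf at chr17:46546839-46556162 of mm10. In the GENCODE annotation of the same build, Elk4 and Mfsd4a lie on opposite strands and overlap, and 84 exonic bases of Elk4 (1.83% of its exons within the table's row) also belong to Mfsd4a. A further 104 exonic bases (2.26%) belong to the noncoding transcript Gm29103. Elk3 shares 316 exonic bases (6.95%) with Cdk17 on the opposite strand, and Elk1 shares 76 (1.41%) with Uxt. The strand setting of the counting is not given in the sources used here, so reads in these shared stretches cannot be assigned to either gene. In the deposited table, however, the row named Mfsd4 starts at 132026621, after the end of the Elk4 row.

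The promoters of Elk4 and Srf are shown because exact searches found different motifs in them, CCGGAAGT in Elk4 and a pair of CArG boxes in Srf. Both are the 250 bases before the start site in the RefSeq table of GRCm38.p6, at chr1:132007370-132007619 on the plus strand for Elk4 and at chr17:46556163-46556412 on the minus strand for Srf, written 5′ to 3′. Capitals mark CCGGAAGT, a strong ETS site, in Elk4, and the CArG boxes in Srf.
Elk4: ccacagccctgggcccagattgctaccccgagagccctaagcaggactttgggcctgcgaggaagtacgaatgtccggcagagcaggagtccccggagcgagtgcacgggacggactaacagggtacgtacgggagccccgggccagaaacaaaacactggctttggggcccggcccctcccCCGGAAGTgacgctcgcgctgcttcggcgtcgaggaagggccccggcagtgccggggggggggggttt
Srf: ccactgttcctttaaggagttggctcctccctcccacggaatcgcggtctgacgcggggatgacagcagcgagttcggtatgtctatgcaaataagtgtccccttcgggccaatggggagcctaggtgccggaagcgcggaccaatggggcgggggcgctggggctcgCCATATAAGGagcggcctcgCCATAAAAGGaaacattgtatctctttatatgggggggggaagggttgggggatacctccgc
In these windows, searched on both strands, Elk4 held CCGGAAGT from -68 to -61 relative to the start site and no CArG box. The RefSeq table has 3 windows for Elk4, of which the one nearest to the start of the gene's row is shown, and the other 2 held neither motif. Srf held 2 CArG boxes, from -82 to -73 and from -62 to -53, and the last letters of the second fall within a GGAA match. Another GGAA match of Srf, from -120 to -117, lies in CCGGAAGC, which differs from CCGGAAGT only in its last letter. The exact search therefore does not show that Srf lacks an ETS site. The window of Elk1 held neither motif. The bases after the start site in the RefSeq window of Elk3 matched no GENCODE transcript of Elk3, so that window was not used here. Among 32851 RefSeq windows of the same length, 1.47% held a CArG box and 2.88% held CCGGAAGT. The short GGAA core, which also lies inside CCGGAAGT, occurred in 93.5% of windows and in those of Elk1, Elk4 and Srf.

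Levels are given as CPM, the counts of a gene per M counts of the library, with the library total corrected for its composition by the TMM method of edgeR. Total counts ran from 27.2 to 46.5 M per sample. Replicates correlated at 0.981 to 0.991 across genes on the log2 scale, except that C57BL/6 mutant replicate 4 correlated with its partners at only 0.958, so the calls of the 4 genes and of the gene lists were also checked without it. Without it 29.3% of all genes were called for genotype in C57BL/6, in place of 23.9%, and 19% for the difference between the genotype effects of the strains (the interaction), in place of 10%. Summed markers of other cell types moved between groups. Cartilage markers totalled 4724 to 6987 CPM in C57BL/6 wild type and 263 to 2655 CPM in C57BL/6 mutant samples, and ciliated epithelium markers 104 to 216 and 4.80 to 54.8 CPM. The top of both mutant ranges was replicate 4, and mutant replicates 5 and 6 held 263 and 265 CPM of cartilage and 4.80 and 5.06 CPM of ciliated epithelium markers. In BALB/c, cartilage markers totalled 609 to 1728 CPM in wild type and 1019 to 4912 CPM in mutant samples, and ciliated epithelium markers 5.04 to 6.05 and 5.08 to 6.90 CPM. Osteoclast markers totalled 2124 to 2622 CPM in C57BL/6 wild type and 4474 to 5061 CPM in C57BL/6 mutant samples, and all 6 of them were called higher there, as 11.3% of all genes were. In BALB/c they totalled 2966 to 3489 CPM in wild type and 3019 to 3458 CPM in mutant samples. Erythroid markers ran from 218 to 293 CPM in C57BL/6 wild type and from 56.8 to 88.2 CPM in C57BL/6 mutant samples, and all 7 tested were called lower there, as 12.6% of all genes were. In BALB/c they went the other way, from 252 to 369 CPM in wild type and 481 to 583 CPM in mutant samples, and the interaction was called for all 7, as for 10% of all genes. Of the 8 osteoblast markers 6 were called higher in the C57BL/6 mutants, as 11.3% of all genes were, and 0 were called in BALB/c. The interaction was called with a value below 0 for 4 of these 8, as for 4.58% of all genes. The part of the osteoblasts in the differences of Elk1, Elk3, Elk4 and Srf was not tested. In bulk tissue, fewer cells of a type and less RNA per cell cannot be told apart.

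Elk4 was the least abundant of the 4 genes and the one that differed most between the strains. In C57BL/6 wild type samples Elk4 stood at 21.1, 22.2 and 22.2 CPM, a mean of 21.8 CPM ± 0.642 (SD, n = 3). In C57BL/6 mutant samples it stood at 24.9, 29.1 and 28.1 CPM, a mean of 27.4 CPM ± 2.19 (SD, n = 3). All 3 mutant samples lay above all 3 wild type samples, as groups did without overlap for 41.6% of all genes in this comparison. BALB/c wild type samples held the lowest Elk4 levels of the study, 5.93, 6.61 and 5.80 CPM, with a mean of 6.11 CPM ± 0.434 (SD, n = 3). BALB/c mutant samples reached 10.5, 12.2 and 18.6 CPM in replicates 16, 17 and 18, with a mean of 13.8 CPM ± 4.27 (SD, n = 3). Here too the mutant samples lay above the wild type samples, in a comparison where 20% of all genes had ranges that did not overlap, and none of the 6 BALB/c samples reached the lowest C57BL/6 sample. In each BALB/c group the only sample with over 1000 Y-linked counts had the lowest Elk4 level, replicate 15 at 5.80 CPM and replicate 16 at 10.5 CPM. Among C57BL/6 mutants that sample was replicate 6, in the middle at 28.1 CPM.

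**Figure D1:**
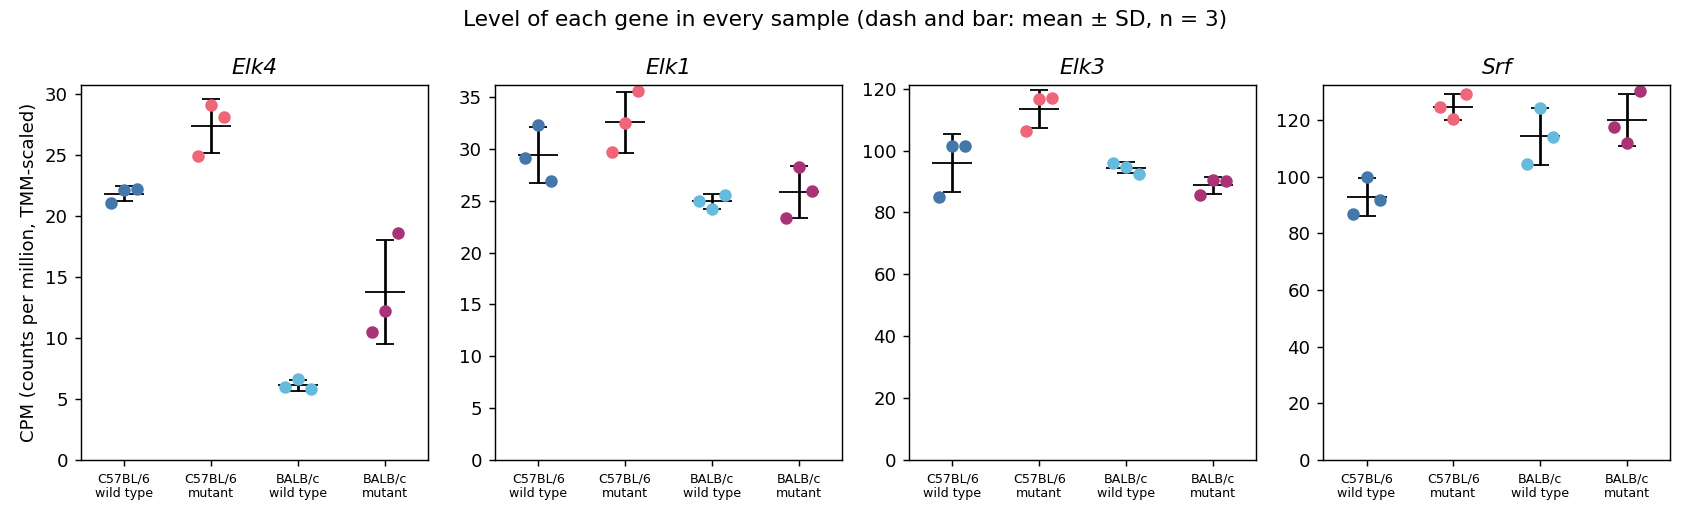
Level of Elk4, Elk1, Elk3 and Srf in each of the 12 samples, in CPM on an axis from 0, with the mean and SD of each group of 3. The 3 Elk4 values of BALB/c wild type lie between 5.80 and 6.61 CPM, below every other sample, and BALB/c mutant replicate 18 stands apart at 18.6 CPM.

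The wild type strains differed in Elk4 by -1.84 on the log2 scale, BALB/c minus C57BL/6 (SE 0.173), so BALB/c was 3.57-fold lower (edgeR quasi-likelihood test, Benjamini-Hochberg adjusted p = 1.41e-05). Among all genes tested, 48.5% were called in this comparison (22.8% higher and 25.6% lower in BALB/c), and 8.16% were at least as much lower in BALB/c as Elk4. Between the mutant groups Elk4 differed by -0.99 (SE 0.163, edgeR adjusted p = 0.000650), where 36.9% of all genes were called, 18% higher and 18.9% lower. Under scaling by total counts these shares were 13.7% higher and 30.3% lower in wild type and 24.9% higher and 11.8% lower in mutant samples. Ranges without overlap between strains were found for 57.5% of all genes in wild type and 50.2% in mutant samples. Both Elk4 calls held in every fit that left out a sample. The BALB/c samples in these strain comparisons are those with which the gene was chosen, so neither p-value is independent of the choice. The summed cartilage and ciliated epithelium markers were also lower in BALB/c than in C57BL/6 wild type samples, without overlap, and the part of those cells in the Elk4 difference was not tested. The authors' deposited table gives Elk4 1.75 log2 units higher in C57BL/6 wild type than in BALB/c wild type, with a q-value of 1.37e-28.

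The genotype difference of Elk4 had the same sign in both strains. In C57BL/6, mutant samples were higher by 0.33 on the log2 scale (SE 0.161), which did not pass the threshold of 0.05 in the fit of all samples (edgeR adjusted p = 0.156), although the ranges did not overlap. It passed where only the 6 C57BL/6 samples were fitted, with a value of 0.32 (edgeR adjusted p = 0.0471). It was 0.39 without replicate 4 (edgeR adjusted p = 0.113) and 0.13 under scaling by total counts (edgeR adjusted p = 0.562). In BALB/c, the contrast that drew attention to the gene, the fitted difference was 1.17 (SE 0.172), a 2.25-fold higher level in mutant samples, and without replicate 18 it was 0.89. The authors' deposited table gives 1.12 for the BALB/c and 0.31 for the C57BL/6 genotype difference of Elk4.

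The genotype effect of Elk4 was larger in BALB/c than in C57BL/6 by 0.85 on the log2 scale (SE 0.235, edgeR adjusted p = 0.0428). The BALB/c values with which the gene was chosen make up 1 of the 2 differences in this interaction, so its p-value is not independent of the choice. Among all genes, 10% were called in the interaction (5.46% with a higher and 4.58% with a lower value, which total counts turned to 10.3% and 1.08%), and 14.9% had a value at least as high as that of Elk4. The direction held in every fit, but the call was narrow. It was lost in 9 of the 12 fits that left out 1 sample, where adjusted p-values of all 12 ran from 0.0224 to 0.0916, and with limma-voom (0.82, adjusted p = 0.0551). The value fell to 0.57 without BALB/c mutant replicate 18, with an edgeR adjusted p of 0.0386. Without C57BL/6 mutant replicate 4 it was 0.79, with an edgeR adjusted p of 0.0401.

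**Figure D2:**
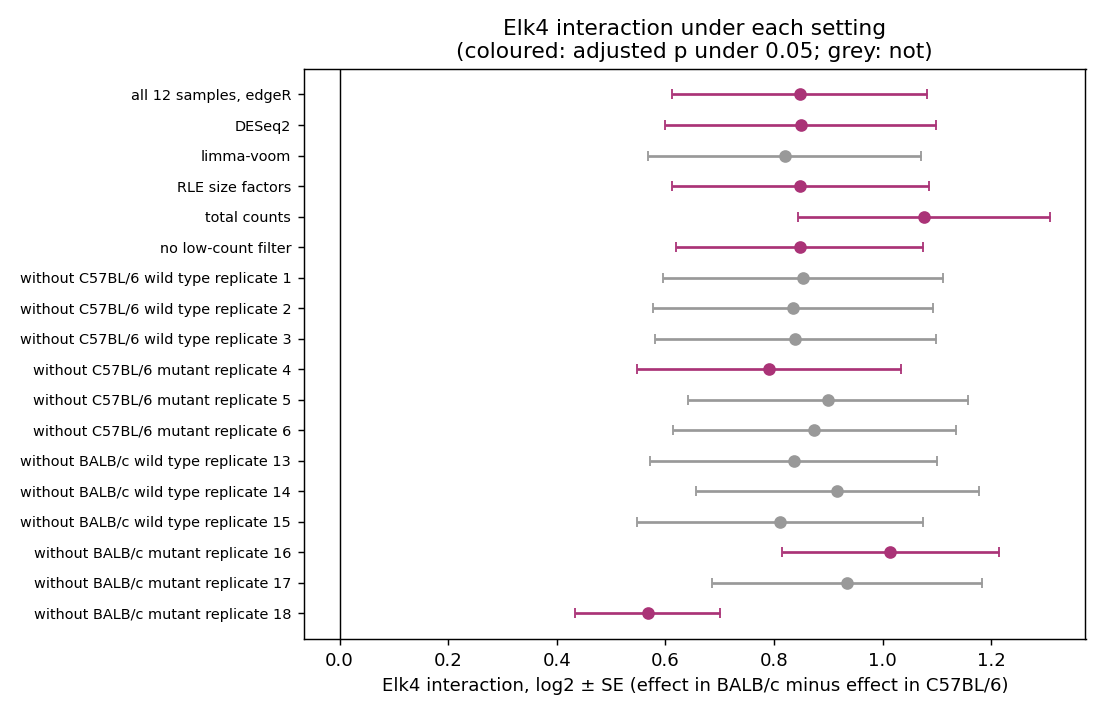
Difference between the genotype effects of Elk4 (BALB/c minus C57BL/6, log2 ± SE) under each setting and with each sample left out in turn. Coloured points have an adjusted p under 0.05, and every value lies above 0, the lowest being 0.57 without BALB/c mutant replicate 18.

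The replicate spread of Elk4 was unequal. On the log2 scale the SD of Elk4 was 0.0427 in C57BL/6 wild type, 0.118 in C57BL/6 mutant, 0.0998 in BALB/c wild type and 0.426 in BALB/c mutant samples. The median gene had SDs of 0.150, 0.132, 0.124 and 0.106 in the same groups. Elk4 was thus tighter than the median gene in the first 3 groups, while in BALB/c mutants 87.5% of genes had a smaller SD. Its coefficient of variation there was 31.0%, against 5.99% expected from counting read pairs alone. In BALB/c wild type samples, which held only 158 to 214 counts of Elk4, the coefficient of variation was 7.10% and counting alone would give 10.3%. The fitted biological coefficient of variation over the 4 groups was 14.8% for Elk4, above the 11.3% of the median gene and above the 7.01% to 8.53% of the other 3 genes.

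BALB/c mutant replicate 18, the sample with the high Elk4 value, had the lowest sums of skeletal muscle and cartilage markers of its group. Skeletal muscle markers totalled 18.7 CPM in that replicate, 40.8 in replicate 17 and 437 in replicate 16, and cartilage markers totalled 1019, 4912 and 1265 CPM. Its sum of osteoclast markers, 3458 CPM, was the highest of the 3. The part of these cells, and of the erythroid cells whose markers fell in C57BL/6 and were higher in BALB/c mutants, in the Elk4 differences was not tested. Replicate 18 was the highest of the 3 BALB/c mutant samples for 31.5% of all genes tested. It was the highest for Elk4 and Srf, and replicate 17 was the highest for Elk1 and Elk3. In the gene lists described below, replicate 18 was the highest for 10 of 13 immediate early genes, 11 of 18 genes of the kinase cascade and 12 of 21 other ETS genes, but for 7 of 24 actin and contraction genes.

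Elk1, the ternary complex factor best known for carrying the ERK signal to Fos, passed no genotype test. It averaged 29.4 CPM ± 2.70 (SD, n = 3) in C57BL/6 wild type, with values of 29.1, 32.3 and 26.9 CPM. The C57BL/6 mutant samples held 29.7, 32.5 and 35.6 CPM of Elk1, a mean of 32.6 CPM ± 2.94 (SD, n = 3). In BALB/c the Elk1 values were 25.02, 24.2 and 25.6 CPM in wild type and 23.3, 28.3 and 26.0 CPM in mutant samples. Genotype ranges of Elk1 overlapped in both strains. The genotype difference was 0.15 in C57BL/6 (edgeR adjusted p = 0.247) and 0.05 in BALB/c (edgeR adjusted p = 0.886), and neither passed. Elk1 was lower in BALB/c than in C57BL/6, with a log2 difference of -0.24 among wild type (edgeR adjusted p = 0.0464) and of -0.33 among mutant samples (edgeR adjusted p = 0.0128). The wild type call was lost in 5 of 6 fits that left out a sample, with adjusted p-values from 0.0277 to 0.184 over the 6. The mutant call was lost in 2 of 6, without C57BL/6 replicate 6 (edgeR adjusted p = 0.0593) or BALB/c replicate 16 (edgeR adjusted p = 0.0596), and under total counts (-0.21, edgeR adjusted p = 0.0861). Elk1 is X-linked, and Y-linked transcripts passed 1000 counts in all 3 C57BL/6 wild type samples but in only 1 of 3 samples of each other group. The part of this imbalance in the Elk1 differences was not tested.

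Elk3, the member that can act as a repressor, stood at 85.1, 102 and 101 CPM in C57BL/6 wild type and at 106, 117 and 117 CPM in C57BL/6 mutant samples. It rose by 0.24 in the C57BL/6 mutants (SE 0.0696, edgeR adjusted p = 0.0283), and the ranges did not overlap. This Elk3 call held without replicate 4 (0.28, edgeR adjusted p = 0.0144) but was lost when C57BL/6 wild type replicate 1, mutant replicate 5 or mutant replicate 6 was left out, and under scaling by total counts (0.05, edgeR adjusted p = 0.406). In BALB/c the mutant samples lay below the wild type samples. Wild type samples held 96.1, 94.7 and 92.5 CPM of Elk3 and mutant samples 85.5, 90.5 and 90.2 CPM, a difference of -0.09 that did not pass (edgeR adjusted p = 0.692) although the ranges did not overlap. The interaction of Elk3 was -0.33 and missed the threshold (SE 0.0986, edgeR adjusted p = 0.0544), and it passed with DESeq2 at the same value (adjusted p = 0.0222), without replicate 4 (-0.37, edgeR adjusted p = 0.0266) and without C57BL/6 wild type replicate 3 (-0.37, edgeR adjusted p = 0.0439). Under total counts it was -0.10 (edgeR adjusted p = 0.258).

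Srf itself rose in the C57BL/6 mutants. Its levels were 86.8, 100.02 and 91.7 CPM in C57BL/6 wild type, a mean of 92.9 CPM ± 6.67 (SD, n = 3). They were 125, 120.3 and 129 CPM in C57BL/6 mutant samples, a mean of 125 CPM ± 4.47 (SD, n = 3). The groups did not overlap, and the difference was 0.43 (SE 0.0791, edgeR adjusted p = 0.00398), and of these 4 genes 2 were called, Srf and Elk3. Among all genes 23.9% were called in that comparison, 11.3% higher and 12.6% lower in the mutants. Scaling by total counts turned these shares to 3.80% higher and 25.1% lower, so directions in this comparison are relative to the scaling. The call for Srf held in each of the 6 fits that left out a C57BL/6 sample, and without replicate 4 the value was 0.42 (edgeR adjusted p = 0.00385). Under total counts it was 0.23, at the edge of the threshold (edgeR adjusted p = 0.0483). In BALB/c, Srf levels were 104, 124 and 114 CPM in wild type and 118, 112 and 130.3 CPM in mutant samples, overlapping ranges with a difference of 0.07 (edgeR adjusted p = 0.800). The interaction of Srf was -0.36 and did not pass (SE 0.112, edgeR adjusted p = 0.0634), and it passed with DESeq2 (-0.35, adjusted p = 0.0241) and without C57BL/6 wild type replicate 2 (-0.41, edgeR adjusted p = 0.0485). Under total counts it was -0.13 (edgeR adjusted p = 0.454). BALB/c wild type samples held more Srf than C57BL/6 wild type samples (0.30, edgeR adjusted p = 0.00844), a call that was lost under total counts (0.19, edgeR adjusted p = 0.0747), whereas the mutant groups differed by -0.05 (edgeR adjusted p = 0.622). In BALB/c none of Elk1, Elk3 and Srf passed with edgeR, at an unadjusted p under 0.05, or with DESeq2 or limma-voom, where edgeR called 0.136% of all genes (0.0926% higher and 0.0432% lower).

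**Figure D3:**
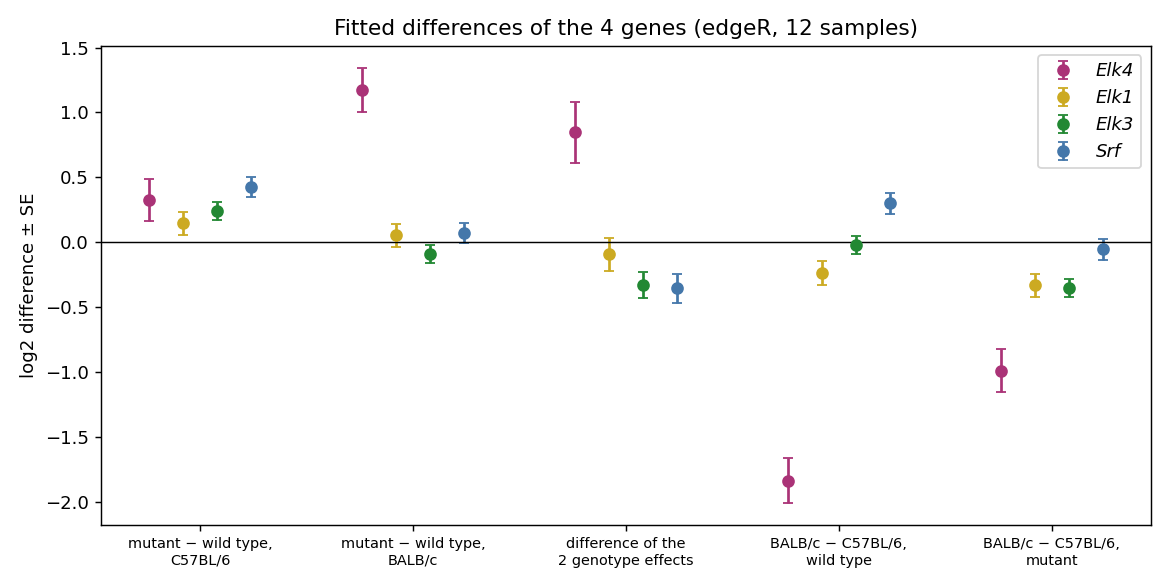
Fitted log2 differences (± SE) of the 4 genes in 5 comparisons of the edgeR model of 12 samples. Elk4 has the largest strain differences of the 4, -1.84 in wild type and -0.99 in mutant samples, and is the only one of the 4 whose interaction lies above 0 in this fit (0.85), though that of Elk1 also does under total counts (0.14).

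Per kilobase of the length given in the table, Srf and Elk3 were the most abundant, Elk1 came next and Elk4 last. Srf stood at 22.7 CPM per kb ± 1.63 and Elk3 at 22.7 CPM per kb ± 2.24 in C57BL/6 wild type (SD, n = 3), so they did not differ beyond their spread there, while in each of the other 3 groups all Srf values lay above all Elk3 values. Elk1 stood at 8.29 CPM per kb ± 0.761 and Elk4 at 5.95 CPM per kb ± 0.175, and these ranges did not overlap. Elk4 made up 16.1% ± 0.725 of the summed level of the 3 ternary complex factors in C57BL/6 wild type and 17.2% ± 0.519 in C57BL/6 mutant samples. Its share was 5.37% ± 0.378 in BALB/c wild type and 11.6% ± 2.96 in BALB/c mutant samples (SD, n = 3 each). The summed level was 36.9 CPM per kb ± 2.61 in C57BL/6 wild type and 31.0 CPM per kb ± 0.358 in BALB/c wild type samples, while Elk3 made up 61.4% and 71.9% of it. The ratio of Srf to this sum was 0.615 in C57BL/6 wild type, 0.703 in C57BL/6 mutant, 0.902 in BALB/c wild type and 0.918 in BALB/c mutant samples.

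The immediate early genes, the targets through which ternary complex factors are best known, were counted from a list of 13. In the C57BL/6 mutants 3 of them rose and 0 fell, 23.1% of the list beside 23.9% of all genes (11.3% higher and 12.6% lower). These were Egr3, at 46.1 to 58.2 CPM in wild type and 108 to 126 CPM in mutant samples (1.12, edgeR adjusted p = 0.00473), Fosb (0.63, edgeR adjusted p = 0.00317) and the nuclear receptor Nr4a1 (0.42, edgeR adjusted p = 0.0249). All 3 calls held without replicate 4, where Arc was called as well. Those of Egr3 and Fosb held whichever C57BL/6 sample was left out, and that of Nr4a1 was lost in 4 of the 6 fits (edgeR adjusted p from 0.0172 to 0.0833). Under scaling by total counts Nr4a1 no longer passed (0.23, edgeR adjusted p = 0.120). Egr1 differed by 0.15 (edgeR adjusted p = 0.292) and Fos by 0.27 (edgeR adjusted p = 0.0651) there. The list's median was 0.17 in C57BL/6 and -0.18 in BALB/c, beside medians of -0.00 and 0 over all genes. In BALB/c no gene of the list was called by edgeR, DESeq2 or limma-voom, and 2 had an unadjusted p under 0.05. The interaction was called for 1 of the 13, Fosb (-0.63, edgeR adjusted p = 0.0321), which is 7.69% of the list beside 10% of all genes, and 9 had an unadjusted p under 0.05. That count was 8 with DESeq2, 4 with limma-voom, 2 with no low-count filter and 0 under total counts. Over the 12 fits that left out 1 sample it ran from 0 to 6 and was 0 in 7 of them, where the Fosb call was lost too. It was 6 without replicate 4, all with values below 0, as Egr2, Egr3, Mcl1, Nr4a1 and Arc were called beside Fosb. The Fosb levels were 1500 to 1774 CPM in C57BL/6 wild type, 2251 to 2856 in C57BL/6 mutant, 2515 to 3216 in BALB/c wild type and 2793 to 3003 in BALB/c mutant samples.

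In wild type samples, where BALB/c held the least Elk4, 11 of the 13 immediate early genes were higher in BALB/c and 0 were lower. The list's median was 0.63, and 84.6% of it was called beside 48.5% of all genes, 22.8% higher and 25.6% lower. Under total counts 10 were higher and 0 lower, beside 13.7% and 30.3% of all genes. Strain and sequencing run cannot be told apart here, and the part of Elk4 in this difference was not tested. Egr1 stood at 1959 to 2179 CPM in C57BL/6 and at 2908 to 3413 CPM in BALB/c wild type samples (0.59, edgeR adjusted p = 0.000680). Fos stood at 2476 to 2932 and at 3986 to 4435 CPM (0.63, edgeR adjusted p = 0.000401). The strain groups did not overlap for either gene. In mutant samples 4 of the list were higher and 1, Egr3, was lower in BALB/c, 38.5% of the list beside 36.9% of all genes, and Mcl1 among the 4 no longer passed without replicate 4 (edgeR adjusted p = 0.0883). Under total counts Egr1, Fos and Fosb were called as well, so that 7 were higher and 1 lower, beside 24.9% and 11.8% of all genes.

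**Figure D4:**
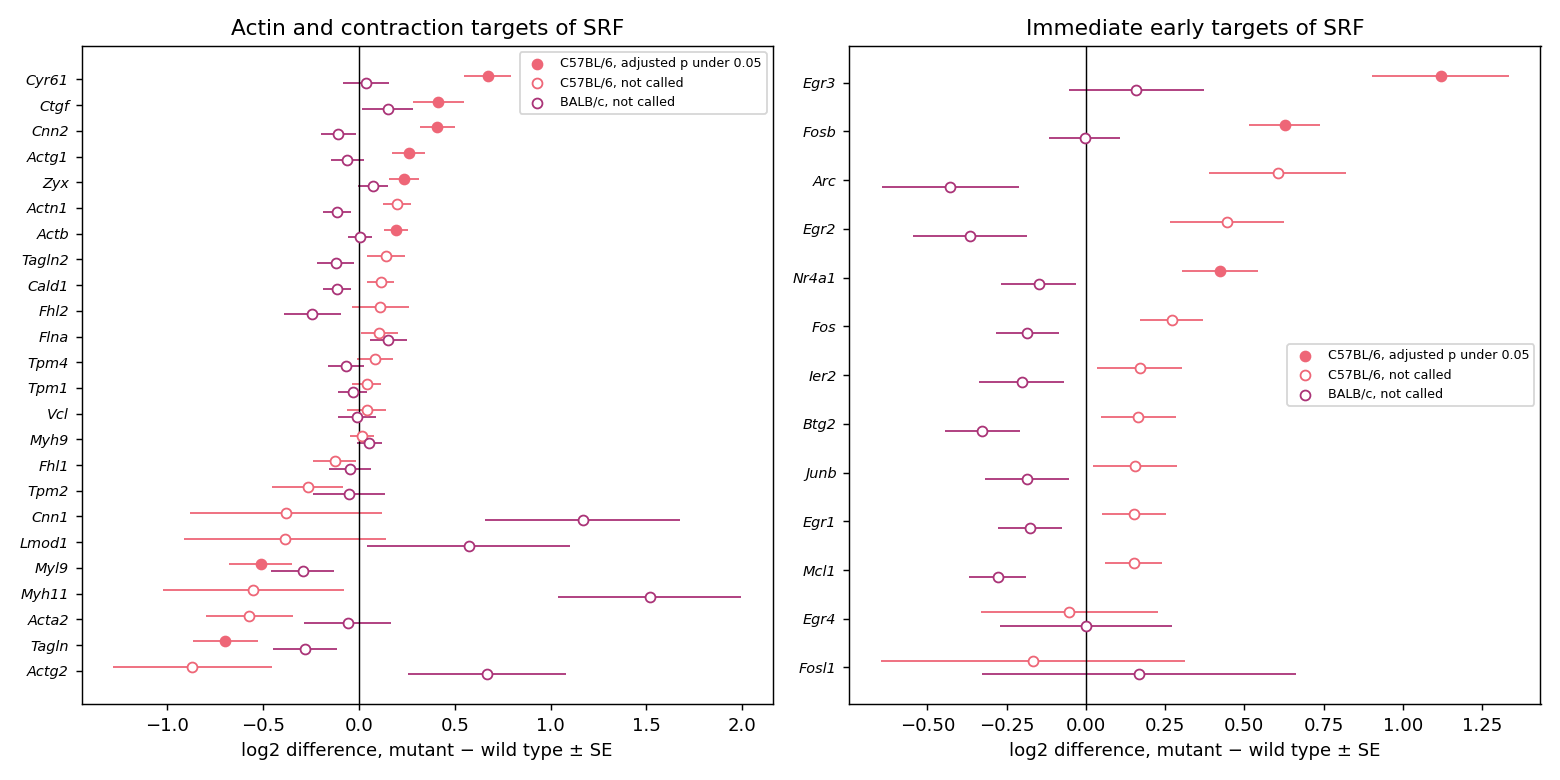
Genotype difference (log2, mutant minus wild type, ± SE) of the 24 actin and contraction targets and the 13 immediate early targets of SRF in each strain. Filled points are the 8 and 3 genes called in C57BL/6, and no BALB/c point was called.

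Actin and contraction genes, the SRF targets of the actin-regulated cofactors, were counted from a list of 24. In C57BL/6 mutants 6 of them rose and 2 fell, 33.3% of the list beside 23.9% of all genes (11.3% higher and 12.6% lower), with a median of 0.06. The genes that rose were Cyr61 and Ctgf, secreted matrix proteins (0.67, edgeR adjusted p = 0.00336, and 0.41, edgeR adjusted p = 0.0410), the calponin Cnn2 (0.41, edgeR adjusted p = 0.00966, and 0.22 under total counts), and the actins Actg1 and Actb with the focal adhesion protein Zyx, at 0.19 to 0.26. The calls of Ctgf, Actg1, Actb and Zyx were lost under scaling by total counts, where Actb turned to -0.00. Acta2, Fhl1 and Myh9 gained calls there, so that 2 genes were higher and 5 lower under that scaling. Tagln (-0.70, edgeR adjusted p = 0.0136) and Myl9 (-0.51, edgeR adjusted p = 0.0425), genes of smooth muscle contraction, fell. Acta2, smooth muscle actin, stood at 136 to 149 CPM in wild type and 92.4 to 98.0 CPM in mutant samples (-0.57, edgeR adjusted p = 0.0847). The count of 8 fell to between 2 and 5 when any 1 of the 6 samples was left out, and it was 5 without replicate 4, where Actb, Actg1, Ctgf and Zyx no longer passed and Actn1 did. Of the 6 smooth muscle markers 5 are in this same list, so their sum is no separate measure of those cells. The sixth, Smtn, averaged 149 CPM in C57BL/6 wild type and 149.6 CPM in C57BL/6 mutant samples. In BALB/c no gene of this list was called by edgeR, DESeq2 or limma-voom, and 2 had an unadjusted p under 0.05. In the interaction, Cnn2 (-0.52, edgeR adjusted p = 0.0321) and Cyr61 (-0.63, edgeR adjusted p = 0.0397) were called, 8.33% of the list beside 10% of all genes, and Actn1 joined them without replicate 4. Each of these 2 calls was lost in 7 of the 12 fits that left out 1 sample, and in 6 of them no gene of the list was called. Under total counts only Myh11 was called, with a value above 0.

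The CArG boxes of Actg1 and Cnn2 are shown as examples picked after their values were seen, both genes being called higher in the C57BL/6 mutants. Each line holds 60 bases around the box, in capitals, at chr11:120348551-120348610 on the minus strand for Actg1 and chr10:79988519-79988578 on the plus strand for Cnn2 (RefSeq, GRCm38.p6).
Actg1: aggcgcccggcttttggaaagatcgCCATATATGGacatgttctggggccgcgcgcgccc
Cnn2: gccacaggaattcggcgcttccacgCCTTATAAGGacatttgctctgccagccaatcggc
The box of Actg1 lies from -90 to -81 and that of Cnn2 from -56 to -47 relative to the start site. Of the 19 actin and contraction genes with a promoter in the RefSeq table, 6 held a CArG box within the 250 bases, beside 1.62% of 27025 genes. In the C57BL/6 mutants Actg1 and Cnn2 of these 6 rose and Myl9 fell, while Fhl1 (-0.13), Fhl2 (0.11) and Vcl (0.04) were not called. The call of Actg1 was lost in 5 of the 6 fits that left out a C57BL/6 sample. Of the 8 immediate early genes with a promoter in the table, 1 did. The genes were listed as known SRF targets, so the presence of the box in them is a description.

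The other SRF cofactors showed no genotype call. Mkl1 differed by 0.13 in C57BL/6 (edgeR adjusted p = 0.0774) and Mkl2 by 0.16 (edgeR adjusted p = 0.130). Of the list of 5, none was called in either strain or in the interaction by edgeR, DESeq2 or limma-voom, and 3 had an unadjusted p under 0.05 in each. Mkl2, like Elk4, was lower in BALB/c wild type samples, at 34.0 to 39.8 CPM against 52.4 to 55.9 CPM in C57BL/6 (-0.58, edgeR adjusted p = 0.000117). Myocd, the cofactor of smooth and heart muscle, was near the limit of detection at 0.371 to 1.93 CPM in all samples.

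The kinase cascade upstream of the ternary complex factors was counted from a list of 18 genes. In C57BL/6 mutants 4 rose, the adaptors Grb2 (0.23, edgeR adjusted p = 0.0107) and Gab1 (0.26, edgeR adjusted p = 0.0233), the exchange factor Sos2 (0.40, edgeR adjusted p = 0.0457) and the scaffold Ksr1 (0.38, edgeR adjusted p = 0.00888). This was 22.2% of the list, all higher, beside 23.9% of all genes called in either direction and 11.3% called higher. All 4 calls held without replicate 4, and under total counts all 4 differences were smaller (0.04 to 0.19) and none passed, while 4 other genes of the list were called lower. The call of Grb2 was lost in 1, that of Gab1 in 4 and that of Sos2 in 5 of the 6 fits that left out a C57BL/6 sample. Mapk3, which encodes an ERK kinase, differed by 0.20 (edgeR adjusted p = 0.0878). In BALB/c and in the interaction no gene of the cascade was called by edgeR, DESeq2 or limma-voom, and 1 had an unadjusted p under 0.05 in each. Without replicate 4 the interaction was called for 1, Grb2. mRNA levels do not measure the phosphorylation through which ERK acts on these factors.

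Of the 23 other ETS genes listed, 21 passed the filter. In C57BL/6 mutants 2 rose and 2 fell, beside 11.3% and 12.6% of all genes. The 4 calls held without replicate 4, but the count then was 11, with 6 higher and 5 lower, as Fli1, Etv1, Etv3 and Elf4 joined those that were higher and Etv4, Elf3 and Elf5 those that were lower. On all samples it was 6 with DESeq2 and 7 with limma-voom. Elf3 and Elf5, genes of epithelia, stood at 4.29 and 6.01 CPM in replicate 4 and at no more than 0.0970 CPM in the other 2 mutant samples, against at least 5.04 and 11.1 CPM in wild type. Etv5, a gene known to respond to FGF signalling, rose by 0.44 (edgeR adjusted p = 0.00377, and 0.24 with 0.0455 under total counts), with 41.6 to 46.1 CPM in wild type and 54.5 to 62.3 CPM in mutant samples. Sfpi1, the PU.1 gene of macrophages and osteoclasts, rose by 0.70 (edgeR adjusted p = 0.000205), in the samples where the osteoclast markers were also higher and macrophage markers totalled 512 to 590 CPM, against 301 to 380 CPM in wild type, and the part of those cells in its rise was not tested. The endothelial and chondrocyte factor Erg fell by 0.66 (log2 difference -0.66, edgeR adjusted p = 0.00116) and the epithelial factor Ehf by 2.66 (log2 difference -2.66, edgeR adjusted p = 0.0192, and -3.64 without replicate 4, with the call lost in 3 of 6 fits that left out a sample), beside the lower ciliated epithelium markers. Etv4, the close relative of Etv5, differed by -0.36 (edgeR adjusted p = 0.243), and by -0.62 without replicate 4 (edgeR adjusted p = 0.0316). The interaction was called for Etv5 (-0.51, edgeR adjusted p = 0.0214) and Sfpi1 (-0.61, edgeR adjusted p = 0.00594), 9.52% of the 21 beside 10% of all genes. Without replicate 4 it was called for 6, as Elf3, Elf5, Ehf and Spib joined them with values above 0. The call of Etv5 was lost in 6 of the 12 fits that left out 1 sample and that of Sfpi1 in none. Under total counts neither passed, and Ets1 and Erg were called with values above 0. In BALB/c edgeR called none of the 21, DESeq2 called 2 and limma-voom none, and 5 had an unadjusted p under 0.05.

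The 5 rows of the table on each side of Elk4 on chromosome 1 were examined because the strain difference of Elk4 was large. Of these 10 neighbours, 8 passed the filter. In wild type samples 4 of them, Pm20d1, Slc41a1, Rab7l1 and Slc45a3, were higher in BALB/c, and 1 was lower, where 22.8% of all genes were called higher and 25.6% lower. With total counts 2 were higher and 1 lower, beside 13.7% and 30.3% of all genes. The lower gene was Mfsd4, the next row, at 10.4 to 17.1 CPM in C57BL/6 and 3.83 to 8.71 CPM in BALB/c wild type samples (-1.18, edgeR adjusted p = 0.00347). It overlaps Elk4 on the opposite strand in GENCODE, but the 2 rows of the deposited table do not overlap. Mfsd4 averaged 10.6 CPM in C57BL/6 mutant and 9.68 CPM in BALB/c mutant samples, and its genotype difference in BALB/c was 0.76 (edgeR adjusted p = 0.292). The wild type difference of Nucks1 was 0.03 (edgeR adjusted p = 0.699). In C57BL/6 mutants Pm20d1, Rab7l1 and Slc45a3 rose and Klhdc8a fell, where 23.9% of all genes were called, and these calls held without replicate 4. Leaving out another sample ended that of Pm20d1 in 2 and those of Rab7l1 and Klhdc8a in 3 of 6 fits, and under total counts 2 neighbours were called higher and 2 lower. For BALB/c genotype edgeR, DESeq2 and limma-voom called none of the 8, and 1 had an unadjusted p under 0.05. The interaction was called for none by edgeR (3 without replicate 4), 4 by DESeq2 and 2 by limma-voom, and 5 had an unadjusted p under 0.05.

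**Figure D5:**
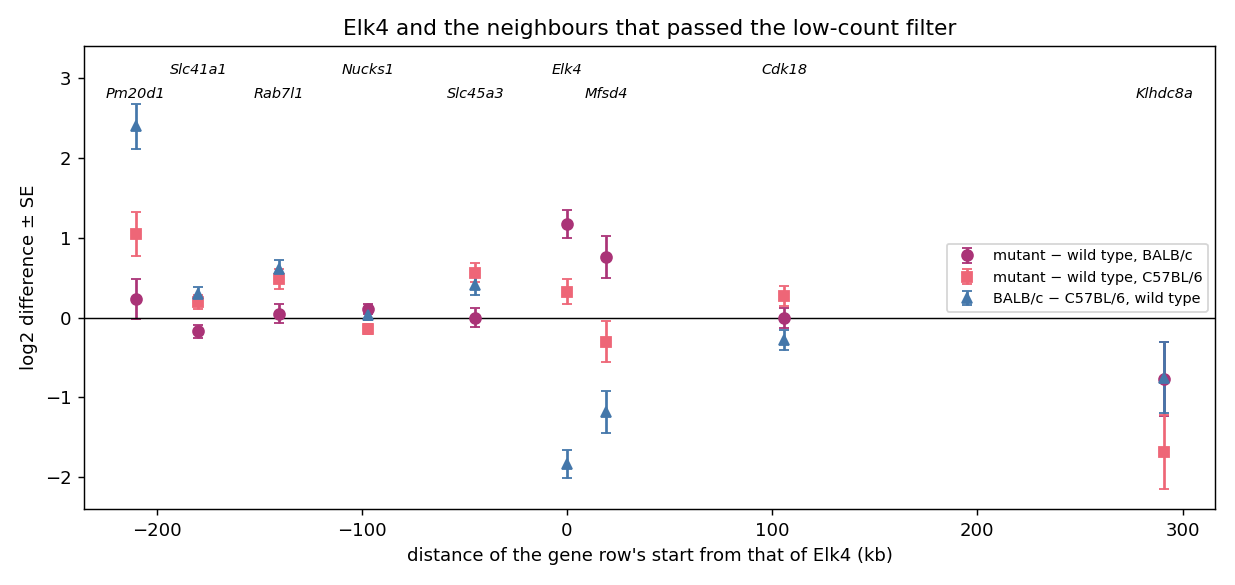
Log2 differences (± SE) of Elk4 and its 8 tested neighbours against the distance of their starts in kb. Elk4 and Mfsd4 are the lowest in BALB/c wild type (-1.84 and -1.18), while Pm20d1, 210 kb before Elk4, is the highest (2.39).

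Among 12882 genes with a mean of at least 1 CPM, leaving out names of predicted or uncharacterised genes and small RNAs, those whose log2 level over the 12 samples followed Elk4 most closely were Arhgef12 (r = 0.991), Heg1 (r = 0.987), Chd8 (r = 0.986), Myst3 (r = 0.985) and Wdfy2 (r = 0.983), and the same 5 came first with a prior count of 0.5 in place of 2. These correlations are descriptions over samples that fall into 4 groups. Arhgef12 averaged 122 CPM in C57BL/6 wild type, 129.6 in C57BL/6 mutant, 75.8 in BALB/c wild type and 101 in BALB/c mutant samples. Wdfy2 averaged 9.58, 11.6, 2.22 and 4.78 CPM in the same order. The 5 genes were chosen for this pattern, so their log2 differences between wild type strains, -0.42 to -2.10, are given with no test.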

How the data were processed

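RNA sequencing of 12 frontal bone samples was analysed from the gene counts that the authors deposited. The submitters' processing notes name bcl2fastq, TopHat2 2.0.6, HTSeq, DESeq2 and the build mm10, and annotation and strand setting are not given in the sources used here. Odd counts did not occur, so read pairs appear to have been counted as 2 reads. The authors' deposited RPKM values were read but enter no result. The authors' deposited table of log2 fold changes with p-values and q-values was quoted for Elk4 only, and only where named.

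Counts were analysed with edgeR 4.0.16 in R 4.3.3. Low rows were dropped by filterByExpr (count minimum 10, total minimum 15), library sizes were corrected with TMM, and all 12 samples entered a single quasi-likelihood fit of 4 group means. P-values were adjusted by Benjamini-Hochberg over 16190 rows, with 0.05 as the threshold of a call. Log2 CPM used a prior count of 2. Alternatives were DESeq2 1.42.0, limma-voom (limma 3.58.1), RLE size factors, total counts, no low-count filter, a fit of only the 6 samples compared, and each sample left out in turn. The scripts were tested on simulated data.

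The 4 genes, the gene lists and the comparisons were chosen with earlier results of these data known. From each list, genes called in a genotype contrast or the interaction were named, at most the 6 with the largest change per contrast, plus 10 fixed genes (Egr1, Fos, Acta2, Mkl1, Mkl2, Myocd, Etv4, Etv5, Mapk3 and 1 that is not reported here), the 10 neighbours of Elk4 and the 5 genes most like it. Actg1 and Cnn2 were chosen for display after their values were seen. Promoters came from RefSeq (GRCm38.p6). The protein sequences were not analysed here. Of the columns of per-sample values, 0 belonged to no sample. Marker lists of 10 cell types were summed per sample, and those not given for all groups in the text follow. Neutrophil markers ran from 219 to 394 CPM in C57BL/6 wild type, 112 to 247 in C57BL/6 mutant, 561 to 659 in BALB/c wild type and 789 to 865 in BALB/c mutant samples. Macrophage markers ran from 371 to 429 CPM in BALB/c wild type and 373 to 394 in BALB/c mutant samples. Osteoblast markers ran from 117415 to 142341 CPM in C57BL/6 mutants and 62209 to 112768 in the other groups, and endothelial markers from 551 to 638 and 449 to 605 CPM. Most of the osteoblast sum was Col1a1, which averaged 89219 CPM in C57BL/6 wild type and 125588 CPM in C57BL/6 mutant samples (0.49, edgeR adjusted p = 0.0594). Skeletal muscle markers ran from 14.5 to 89.8 CPM in C57BL/6 wild type, 21.1 to 26.7 in C57BL/6 mutant and 18.5 to 26.2 in BALB/c wild type samples. Smooth muscle markers ran from 369 to 419, 298 to 319, 351 to 373 and 295 to 510 CPM in C57BL/6 wild type, C57BL/6 mutant, BALB/c wild type and BALB/c mutant samples.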

Additional observations from a re-analysis of the deposited data

Results flagged for a closer look

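The genotype effect differed between the strains by the interaction test of edgeR for Elk4 and 5 genes of the lists of SRF targets and ETS genes, cell type markers not counted. The 5 were 2 of 24 actin and contraction genes, 1 of 13 immediate early genes and 2 of 21 other ETS genes. These shares, 8.33%, 7.69% and 9.52%, were near the 10% of all genes that were called. Among all genes 4.58% were called with a value below 0, and 1.08% under total counts. For Elk4 the effect in BALB/c exceeded that in C57BL/6 by 0.85 on the log2 scale (adjusted p = 0.0428), a contrast that holds the BALB/c values with which the gene was chosen. Arhgef12 had a value of 0.34, which is given with no test since the gene was picked for its likeness to Elk4 over the same samples.

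The 5 listed genes had interactions below 0. All 5 rose in the C57BL/6 mutants, and none was called for genotype in BALB/c, where the log2 differences ran from -0.11 for Cnn2 to 0.09 for Sfpi1. The interaction was -0.52 for the calponin Cnn2 (adjusted p = 0.0321), -0.63 for the matrix protein Cyr61 (adjusted p = 0.0397) and -0.63 for the immediate early gene Fosb (adjusted p = 0.0321). It was -0.51 for Etv5 (adjusted p = 0.0214) and -0.61 for Sfpi1 (adjusted p = 0.00594). Under scaling by total counts the adjusted p-values of these 5 genes ran from 0.0630 for Cnn2 to 0.125 for Etv5, and all values kept their sign. Over the 12 fits that left out 1 sample, the call was lost in 7 for Cnn2, Cyr61 and Fosb each, in 6 for Etv5 and in none for Sfpi1, and it was lost in 9 for Elk4. C57BL/6 wild type samples were the lowest group for all 5 genes, with means of 294 CPM for Cnn2, 1628 CPM for Cyr61, 1614 CPM for Fosb, 43.6 CPM for Etv5 and 24.3 CPM for Sfpi1. That group was also the group in which all 3 samples carried Y-linked transcripts, and the part of this in the differences was not tested.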

How the results depend on the processing

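No paired analysis was possible because the replicate numbers, 1 to 6 in C57BL/6 and 13 to 18 in BALB/c, are not shared between groups. Under the alternatives that kept all samples of a comparison, 95 of 110 recomputed tests of the 4 genes (leaving out Elk4 for genotype in BALB/c, which has no test) kept direction and call, and 20 of 34 recomputed counts of called actin and immediate early genes were equal to those reported. With DESeq2 the interactions of Elk3 (-0.33) and Srf (-0.35) passed, as did 5 immediate early genes for genotype in C57BL/6, and 5 actin and 8 immediate early genes for the interaction. With limma-voom the interaction of Elk4 (0.82) and the wild type strain difference of Elk1 (-0.23) did not pass, and 4 immediate early genes had a called interaction. Scaling by total counts shifted the median gene by -0.20 for genotype in C57BL/6, 0.23 for the interaction, -0.11 for wild type strains and 0.12 for mutant strains. Under it the C57BL/6 genotype difference of Elk1 (-0.051), its interaction (0.14) and the mutant strain difference of Srf (0.062) changed sign, none of them passing in either case. The C57BL/6 genotype difference of Elk3 (0.050), the wild type strain difference of Srf (0.19) and the mutant strain difference of Elk1 (-0.21) no longer passed, that of Elk3 between wild types did (-0.13), and 1 actin and 0 immediate early genes had a called interaction. With no low-count filter these counts were 1 and 2, and Elk1 between wild types (-0.23) did not pass. In fits of only the 6 samples compared, genotype in C57BL/6 passed for Elk4 (0.32) and not for Elk3 (0.24), and Elk1 between wild types (-0.23) did not pass. RLE size factors changed no call of the 4 genes.

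Leaving out each sample in turn, the interaction ran from 0.57 to 1.01 for Elk4, -0.37 to -0.27 for Elk3 and -0.42 to -0.28 for Srf. Genotype in C57BL/6 ran from 0.18 to 0.28 for Elk3 and genotype in BALB/c from -0.012 to 0.13 for Elk1. The wild type strain difference ran from -0.30 to -0.16 for Elk1 and from -0.10 to 0.020 for Elk3, and the mutant strain difference of Elk1 from -0.40 to -0.26. Counts of called genes ran from 2 to 5 (actin) and 2 to 5 (immediate early) for genotype in C57BL/6, from 0 to 3 and 0 to 6 for the interaction, and from 0 to 1 for actin genes in BALB/c. The causes of these changes were not tested, and each of these fits also holds fewer samples. Depth limits Elk4 most in BALB/c wild type, where 158 to 214 counts per sample stand behind its level.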
